A study of Arabidopsis thaliana with 12 samples.

Results

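Seedlings of the Arabidopsis thaliana genotype phod2 in condition P+ were compared with seedlings of the genotype KC in condition P-, 3 libraries against 3, which is 6 of the 12 libraries of the series. All were seedlings aged 8 days, the protocol names HP and LP conditions, and P+ and P- were read as high and low phosphate because the series title concerns phosphate. LIP1p, a lipoyl synthase of the plastid, is the subject of the series, but the labels neither state the lesion in phod2 nor spell out KC, and they give no phosphate concentration, no harvest time and no number of seedlings per library. The 3 KC P+ libraries, headed WT in the deposited table, served as the fed reference, and the labels do not say whether WT and KC are 1 line, so every comparison with KC P+, including the choice of genes raised in KC P-, rests on reading them as the same. The 3 phod2 P- libraries entered only the shared estimate of spread. The comparison asks which phosphate-starvation genes stood in fed phod2 at the level of KC in low phosphate, and it varies genotype and condition together, so a difference between these groups cannot be assigned to one of them.

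Plants short of phosphate raise a set of genes under the transcription factor PHR1, which SPX proteins hold back while phosphate is ample. The set covers uptake transporters, secreted phosphatases and ribonucleases that free phosphate from organic matter, and lipid enzymes that break down phospholipids and put galactolipids and sulfolipids in their place. The non-coding RNAs IPS1 and AT4 sequester the microRNA that limits PHO2, an enzyme that marks phosphate transporters and exporters for removal.

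Raw counts of the 6 libraries summed to between 16821084 and 21863273. Of 20891 genes tested, 5065 (24.2%) were called between phod2 P+ and KC P-, 2085 (9.98%) higher and 2980 (14.3%) lower in phod2 P+, where a call means an adjusted p of at most 0.05 and at least 2-fold in edgeR's quasi-likelihood test. The whole 95% interval of the difference lay within 2-fold in either direction for a further 12659 genes (60.6%), which is called within 2-fold below. In 77.4% of all genes tested the 3 libraries of phod2 P+ did not overlap the 3 of KC P-, with 38.7% wholly above and 38.7% wholly below, so separate groups were the usual case. Shorter genes stood lower in phod2 P+, with a median log2 difference of -0.295 in the tenth with the shortest exons and 0.184 in the tenth with the longest.

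The 4 lists of starvation genes, covering transport, signalling, recycling enzymes and membrane lipids, held 83 members, of which 78 passed the filter on low counts. In phod2 P+, 37 members stood below KC P-, 5 above it and 28 within 2-fold, and 8 were undecided. Their median log2 difference was -0.98, against -0.01 over all genes tested. Of the 28 within 2-fold, 21 were not called between KC P- and KC P+. Between KC P- and KC P+, where 20.5% of all genes were called, 38 of the 78 members were higher in KC P- (10.9% of all genes) and 5 lower (9.6%). These 38 were picked with the same KC P- libraries, so their counts are a description. KC P- and KC P+ also differed in clock genes, given below, so the rise of the 38 cannot be assigned to phosphate supply alone. In phod2 P+, 28 of the 38 stood below KC P-, 7 lay within 2-fold, 3 were undecided and 0 were above. Within 2-fold does not mean an equal level. Of the 7, PPCK1, SPX2, SQD2 and PHO1;H1 had 57.2% to 65.5% of the KC P- level. These 4 were not called against KC P+ either, so the class does not place them with one KC group. MGD2 stood at 85.4% of KC P-, GDPD1 at 110% and MGD3 at 153%. Between phod2 P+ and KC P+, where 7.4% of all genes were called, 16 of the 38 were higher in phod2 P+ (1.98% of all genes), 2 lower (5.42%) and 20 not called. The summed level of the 38 was 489 to 494 CPM per library in KC P+, 1025 to 1055 in phod2 P+ and 2429 to 2485 in KC P-.

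**Figure D1:**
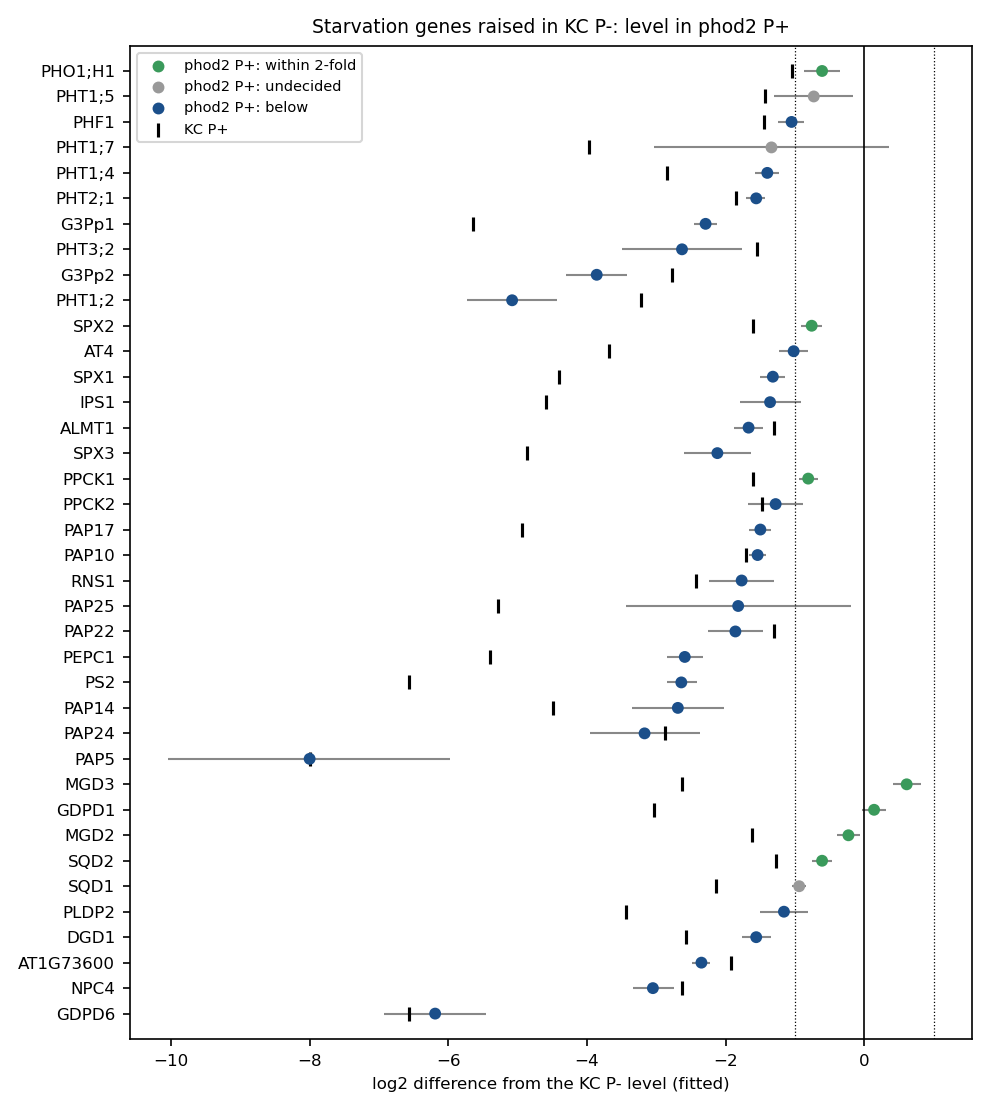
Fitted log2 difference of phod2 P+ from KC P- (points with 95% intervals, coloured by state) and of KC P+ from KC P- (ticks) for the 38 starvation genes called higher in KC P-, in the order transport, signalling, recycling enzymes and lipids. The dotted line at -1 marks 2-fold, and MGD3 and GDPD1 are the members at or above the line at 0.

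Among signalling genes, the members with the steepest rise in KC stood in phod2 P+ between the KC levels. SPX1 (AT5G20150), which encodes a phosphate-status sensor that binds PHR1, had normalized levels of 6.59, 6.66 and 5.80 CPM in the KC P+ libraries, 55.9, 51.8 and 54.2 in phod2 P+ and 138, 127 and 139 in KC P-. For the non-coding RNA IPS1 (AT3G09922) the levels were 0.553, 0.491 and 0.349 in KC P+, 4.53, 3.17 and 5.42 in phod2 P+ and 10.9, 12.3 and 10.7 in KC P-. AT4 (AT5G03545), its relative, stood at 49.5, 52.2 and 52.9 in phod2 P+ and at 111, 96.8 and 107 in KC P-. In these genes the phod2 P+ libraries lay apart from the libraries of both KC groups. Relative to KC P-, phod2 P+ had 40.1% of the SPX1 level (95% interval 35.5% to 45.2%), 38.9% for IPS1 (28.7% to 52.7%), 49.3% for AT4 (42.7% to 56.8%) and 23.0% for SPX3 (16.5% to 32.1%). The log2 differences of SPX1 (-1.32 ± 0.082, SE), IPS1 (-1.36 ± 0.20) and SPX3 (-2.12 ± 0.22) had edgeR adjusted p of 3.86e-09, 4.01e-05 and 1.13e-06. AT4 was at the limit of 2-fold (-1.02 ± 0.096, edgeR adjusted p = 3.52e-07). It was under 2-fold with the length trend removed (-0.80), without KC P- replicate 1 (-0.98) and without phod2 P+ replicate 1 (-0.99). So it was in limma on log2(FPKM + 1) (-0.97), log2(FPKM + 0.1) (-0.98) and log2(TPM + 1) (-0.93).

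SPX2 had the same order, with 12.5, 14.4 and 13.6 CPM in KC P+, 25.1, 25.2 and 22.3 in phod2 P+ and 41.8, 40.7 and 40.7 in KC P-, and lay within 2-fold of KC P- at 58.9% of its level (53.0% to 65.4%). PHR1 itself (0.03 ± 0.076) and STOP1 (0.11 ± 0.061), a factor of the local root response, also lay within 2-fold. ALMT1, the malate channel gene of that local response, was lower in phod2 P+ (6.87, 7.06 and 6.81 CPM) than in KC P- (23.3, 20.6 and 22.2) and was not called against KC P+ (9.87, 8.18 and 8.68). WRKY6 (-1.36), BHLH32 (-1.38) and WRKY75 (-1.01), all transcription factor genes, stood below KC P- without having been called higher in KC P-. WRKY75 was called lower in phod2 P+ than in KC P+ as well. Its difference from KC P- was under 2-fold with the length trend removed (-0.74) and without KC P- replicate 1 (-0.96) or phod2 P+ replicate 2 (-0.85). The same held in limma on log2(FPKM + 1) (-0.65), log2(FPKM + 0.1) (-0.95) and log2(TPM + 1) (-0.72).

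**Figure D2:**
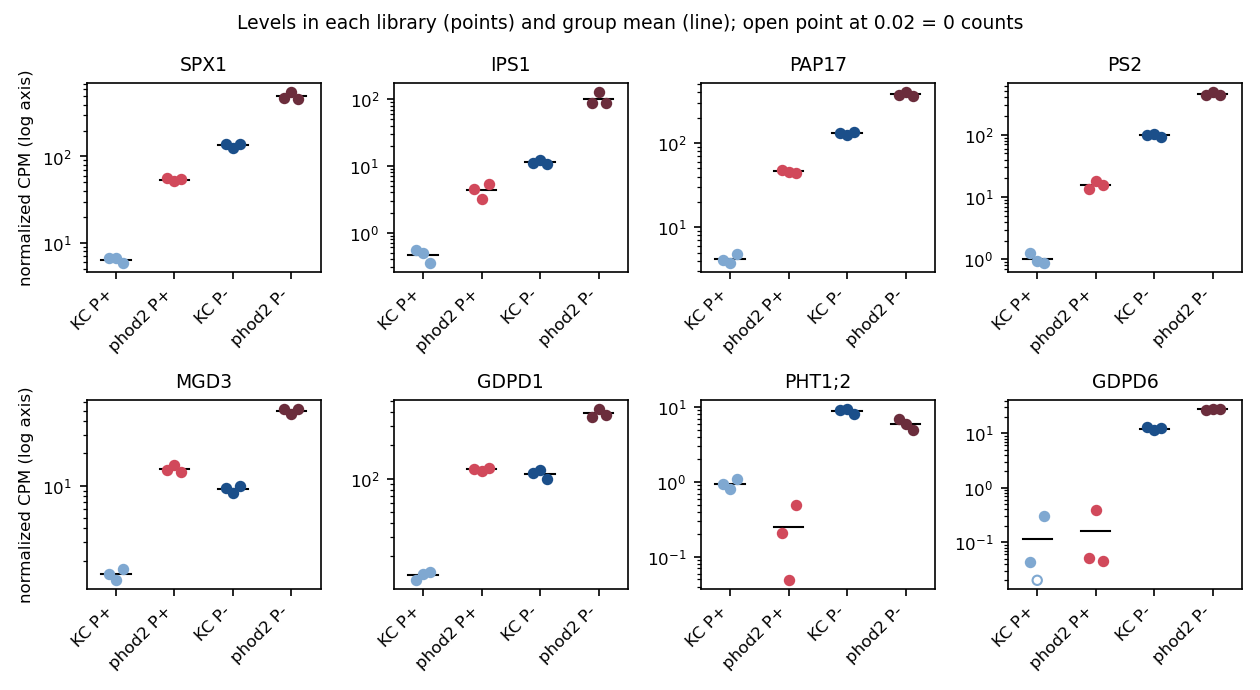
Normalized CPM (log axis) of 8 starvation genes in each of the 12 libraries, with a line at the group mean. In SPX1, IPS1, PAP17 and PS2 the phod2 P+ libraries lie between KC P+ and KC P-, in MGD3 and GDPD1 they reach KC P-, and in PHT1;2 and GDPD6 they lie at or below 0.493 CPM.

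Most recycling enzymes stayed below the level of KC in low phosphate. Of 18 members tested, 14 stood below KC P- (14.3% of all genes), 4 lay within 2-fold (60.6%) and 0 were above (9.98%). The median log2 difference was -1.56. PAP17 (AT3G17790), a purple acid phosphatase gene, had levels of 4.13, 3.76 and 4.8 CPM in KC P+, 48.2, 45.6 and 44.4 in phod2 P+ and 130, 126 and 136 in KC P-. PS2 (AT1G73010), a pyrophosphate-cleaving phosphatase gene, stood at 1.28, 0.927 and 0.872 in KC P+, 13.7, 18.0 and 15.5 in phod2 P+ and 98.2, 104 and 93.0 in KC P-. PEPC1 (AT1G17710), which encodes a phosphatase of phosphoethanolamine and phosphocholine, stood at 3.07, 3.70 and 4.26 in phod2 P+ and at 22.7, 21.8 and 22.3 in KC P-. The groups did not overlap in these genes, and phod2 P+ held 35.3% of the KC P- level of PAP17 (31.6% to 39.4%), 16% of PS2 (13.8% to 18.6%) and 16.6% of PEPC1 (13.8% to 19.9%). Their edgeR adjusted p against KC P- were 3.62e-10, 1.93e-11 and 2.03e-10.

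A second set of recycling enzymes was not called between phod2 P+ and KC P+. PAP10, a root-surface phosphatase gene, had 31.3, 30.0 and 28.8 CPM in phod2 P+ against 88.4, 88.5 and 85.4 in KC P- and 26.9, 27.2 and 26.5 in KC P+. PAP5 had 0 counts in all libraries of phod2 P+ and of KC P+ and 1.54, 2.05 and 1.26 CPM in KC P-, so it was at least 33.4-fold lower in phod2 P+, taken against a floor of 3 counts over the group. RNS1, a secreted ribonuclease gene, stood at 29.3% of KC P-, PAP24 at 11.1%, PAP22 at 27.6% and PPCK2, which encodes a kinase of phosphoenolpyruvate carboxylase, at 41.1%. By contrast PPCK1, its relative, was within 2-fold of KC P- (57.2%, 52.0% to 62.8%). PAP12, a further acid phosphatase gene, had 38.7, 36.4 and 39.1 CPM in KC P+, 68.1, 65.4 and 66.0 in phod2 P+ and 66.2, 63.6 and 66.4 in KC P-. It stood at 102% of KC P- (93.0% to 111%), and its log2 differences of 0.80 and 0.78 from KC P+ were under 2-fold. PAP26 and RNS2, another phosphatase and a ribonuclease gene, also lay within 2-fold and were not called in KC. The acid phosphatase genes PAP7 and PAP8 were called lower in phod2 P+ than in KC P+ (-2.08 and -1.38) as well as below KC P-. PAP25 was called at few reads and with overlapping groups (-1.82 ± 0.74, edgeR adjusted p = 0.047). Leaving out KC P- replicate 1 gave an edgeR adjusted p of 0.106 and leaving out KC P- replicate 3 gave 0.16. The value was 0.123 and 0.114 with replicate 1 or 2 of fed phod2 left out, and 0.0602 and 0.0601 with replicate 1 or 3 of the phod2 libraries in low phosphate left out. With 1 library left out, the log2 difference ran from -2.98 (without phod2 P+ replicate 3) to -1.32 (without phod2 P+ replicate 1). In limma it was -0.16 on log2(FPKM + 1), -0.25 on log2(TPM + 1) and -0.90 on log2(FPKM + 0.1). Over the 20 alternatives that gave a value for PAP25 the adjusted p ran from 0.0198 to 0.16.

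Of 20 membrane lipid genes tested, 6 stood below KC P-, 10 lay within 2-fold, 2 were above and 2 undecided (median log2 -0.58). Among the 10, DGD2, UGP3, PLDP1, PAH1, PAH2 and GDPD5 were not called between KC P- and KC P+. The 2 above, MGD1 and GDPD2, were not called higher in KC P- either. Over all genes 9.98% were above, 14.3% below and 60.6% within 2-fold. MGD3 (AT2G11810), a monogalactosyldiacylglycerol synthase gene of low phosphate, had 1.49, 1.31 and 1.66 CPM in KC P+, 13.9, 15.5 and 13.4 in phod2 P+ and 9.45, 8.53 and 10 in KC P-. GDPD1 (AT3G02040), which encodes a glycerophosphodiester phosphodiesterase, had 12.2, 13.9 and 14.4 in KC P+, 123, 117 and 126 in phod2 P+ and 113, 119 and 100 in KC P-. MGD2 (AT5G20410), the relative of MGD3, had 22.4, 20.3 and 23.4 in phod2 P+ and 24.9, 24.9 and 27.5 in KC P-. For MGD3 every phod2 P+ library lay above every KC P- library, for GDPD1 the groups overlapped, and for MGD2 phod2 P+ lay just below. Against KC P-, the level in phod2 P+ was 153% for MGD3 (133% to 176%, edgeR adjusted p = 4.82e-05), 110% for GDPD1 (97.1% to 124%, edgeR adjusted p = 0.163) and 85.4% for MGD2 (76.3% to 95.6%, edgeR adjusted p = 0.016), all under 2-fold. Against KC P+ these genes were called 9.51-fold, 9.05-fold and 2.62-fold higher.

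SQD2, the sulfolipid synthase gene, lay within 2-fold at 65.4% of KC P- (59.1% to 72.4%). SQD1, which makes the sulfosugar donor, stood at 52.2% (48.6% to 56.0%), an interval that crosses 2-fold. DGD1, the digalactolipid synthase gene, was lower in phod2 P+ (33.6, 33.4 and 36.9 CPM) than in KC P- (99.0, 106 and 101), though called 2.01-fold above KC P+. PLDP2, a phospholipase D gene, stood at 44.6% of KC P- and was called above KC P+ as well.

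The lipid list also held genes below KC P- that were not called between phod2 P+ and KC P+. GDPD6 (AT5G08030), a relative of GDPD1, had 0.0521, 0.390 and 0.0448 CPM in phod2 P+ against 13.0, 11.4 and 12.3 in KC P-, which is 1.37% of that level (0.82% to 2.28%), and 0.0425, 0 and 0.305 in KC P+. NPC4, a phospholipase C gene that hydrolyses phosphatidylcholine, stood at 1.56, 1.85 and 1.79 in phod2 P+ and at 13.9, 13.7 and 15.8 in KC P-. AT1G73600, annotated as a methyltransferase, had 19.6% of its KC P- level and was not called against KC P+, and NMT1, a phosphoethanolamine methyltransferase gene, was lower than in KC P- (-1.24) without a call in KC. GDPD1 at 110% and GDPD6 at 1.37% of KC P- both carried the PHR1 binding motif in their promoters.

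The promoters of 2 members within 2-fold of KC P- and 2 far below it are shown for this reason, as the 300 bases before the gene start in RefSeq TAIR10.1, read 5′ to 3′ on the gene's strand, with matches to the PHR1 site P1BS (GNATATNC, a sequence that reads alike on both strands) in capitals.
GDPD1 promoter, chr3:350011-350310, minus strand: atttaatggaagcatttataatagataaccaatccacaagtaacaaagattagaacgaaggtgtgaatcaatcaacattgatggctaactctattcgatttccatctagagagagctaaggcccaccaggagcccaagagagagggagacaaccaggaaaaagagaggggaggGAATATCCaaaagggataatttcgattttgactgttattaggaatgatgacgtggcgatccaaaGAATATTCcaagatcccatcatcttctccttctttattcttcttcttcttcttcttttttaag
MGD2 promoter, chr5:6896163-6896462, plus strand: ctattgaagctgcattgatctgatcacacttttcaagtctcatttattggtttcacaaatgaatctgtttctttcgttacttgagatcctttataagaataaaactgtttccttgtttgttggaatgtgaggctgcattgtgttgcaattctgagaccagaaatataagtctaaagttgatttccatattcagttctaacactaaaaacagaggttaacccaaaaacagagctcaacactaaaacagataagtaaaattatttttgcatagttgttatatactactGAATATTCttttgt
GDPD6 promoter, chr5:2576820-2577119, minus strand: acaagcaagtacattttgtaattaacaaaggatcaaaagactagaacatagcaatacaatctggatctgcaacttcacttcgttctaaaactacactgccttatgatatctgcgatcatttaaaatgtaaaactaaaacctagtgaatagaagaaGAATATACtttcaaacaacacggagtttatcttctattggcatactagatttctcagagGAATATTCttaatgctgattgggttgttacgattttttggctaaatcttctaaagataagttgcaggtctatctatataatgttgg
PHT1;2 promoter, chr5:17415398-17415697, plus strand: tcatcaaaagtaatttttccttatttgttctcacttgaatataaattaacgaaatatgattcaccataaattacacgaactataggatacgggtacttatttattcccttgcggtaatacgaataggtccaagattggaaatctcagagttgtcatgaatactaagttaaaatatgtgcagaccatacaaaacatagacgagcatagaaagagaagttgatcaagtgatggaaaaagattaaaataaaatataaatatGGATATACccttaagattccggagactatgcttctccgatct

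P1BS matches began 127 and 63 bases before the start of GDPD1, 145 and 86 before GDPD6, 14 before MGD2 and 42 before PHT1;2. Among 32540 promoters of this length, 2096 (6.44%) held the motif, against 16 of the 38 starvation genes called higher in KC P- (42.1%). The motif was found in 7 of the 16 of them that were also called higher in phod2 P+ than in KC P+ (43.8%) and in 9 of the other 22 (40.9%). It stood in 3 of the 7 within 2-fold of KC P- (42.9%) and in 12 of the 28 below it (42.9%). No match was found in these windows of SPX1 and MGD3, which says only that the letters are not there.

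Of 14 phosphate transport genes tested, 9 stood below KC P- (14.3% of all genes), 2 lay within 2-fold (60.6%), 3 were undecided and 0 were above (9.98%). The median log2 difference was -1.37. PHT1;4 (AT2G38940), a root uptake transporter gene, had 8.93, 9.98 and 7.94 CPM in KC P+, 22, 25.9 and 25.1 in phod2 P+ and 62.8, 62.6 and 67.8 in KC P-, so phod2 P+ held 37.8% of the KC P- level (33.5% to 42.7%). G3Pp1 (AT3G47420), annotated as a glycerol-3-phosphate permease, stood at 3.27, 3.49 and 3.71, then 35.1, 34.8 and 37.7, then 184, 166 and 175 in the same order of groups. Both rose in fed phod2 over KC P+, 2.73-fold and 10.3-fold. The uptake transporter gene PHT1;1 (AT5G43350) went the other way, with 80.8, 80.8 and 79.5 in KC P+, 36.1, 37.8 and 39.0 in phod2 P+ and 131, 132 and 126 in KC P-. For PHT1;2 (AT5G43370) the levels were 0.936, 0.818 and 1.09 in KC P+, 0.208, 0.0487 and 0.493 in phod2 P+ and 9.18, 9.47 and 8.15 in KC P-. PHT1;1 and PHT1;2 are close copies whose reads may have been shared in the counting.

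PHT1;1 thus held 29.0% and PHT1;2 2.95% of the KC P- level, and both were called lower than in KC P+. G3Pp2 (AT4G25220), whose annotation includes the name root hair specific 15, behaved alike, with 0.573, 0.487 and 0.672 CPM in phod2 P+, 8.76, 8.97 and 7.79 in KC P- and 1.23, 1.04 and 1.40 in KC P+. The xylem-loading exporter gene PHO1 was lower in phod2 P+ (66.2, 62.4 and 66.6) than in KC P- (141, 148 and 138), while its homologue PHO1;H1 lay within 2-fold (65.5%, 54.7% to 78.4%). PHF1, needed for transporters to leave the endoplasmic reticulum, was at 48.2% of KC P- and the plastid transporter gene PHT2;1 at 33.8%, neither called against KC P+. The mitochondrial carrier gene PHT3;2 stood at 16.2% of KC P-. AT1G63010, annotated as a transporter with an SPX domain, lay within 2-fold. PHT1;5, PHT1;7 and PHT1;9 were undecided, and PHT1;3, PHT1;6 and PHT1;8 did not pass the filter.

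The summed root hair markers stood below both KC groups in phod2 P+, as PHT1;1, PHT1;2 and G3Pp2 did. PHT1;4 and G3Pp1 stood above KC P+ instead. All 11 root hair genes tested stood below KC P- in phod2 P+ (14.3% of all genes), with a median log2 of -2.54. Of the 11, 9 were also called lower than in KC P+ (5.42% of all genes). Their summed level was 88.2 to 95.9 CPM per library in KC P+, 27.6 to 30.5 in phod2 P+ and 186 to 199 in KC P-. The lowest members were XTH14 (-3.24), EXPA18 (-3.18), RSL2 (-3.15) and LRX1 (-2.97), wall enzyme, expansin, transcription factor and wall protein genes. Of 15 markers of other root tissues, 6 stood below KC P- (14.3% of all genes), 7 lay within 2-fold (60.6%) and 2 were undecided. Their log2 differences ran from -1.89 to 0.58. Among the 6 were WER (-1.89), CASP4 (-1.5), PLT2 (-1.5) and CASP5 (-1.29). However, limma called 1 of the 15 below KC P- on log2(FPKM + 1) and 3 on log2(TPM + 1). Of the 15, 8 were called lower than in KC P+ (5.42% of all genes). The summed levels of the 15 were 3976 to 4044 in KC P+, 1716 to 1740 in phod2 P+ and 2687 to 2717 in KC P-. None of these markers was at 0 in phod2 P+. In whole seedlings fewer root cells and less RNA per cell cannot be told apart, and the part of root markers in the transporter results was not tested. Of 12 genes of green shoot tissue 10 lay within 2-fold of KC P- (60.6% of all genes). LHCB1.1 (-4.19) and LHCB2.1 (-4.13) stood below it and were not called against KC P+. LHCB1.1 belongs to a family of near-identical copies.

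The 5 starvation-list members that stood above KC P- in phod2 P+ had levels close to KC P+. AT3G01310, annotated as a homologue of yeast Vip1, a kinase of inositol pyrophosphates, had 192, 199 and 196 CPM in KC P+, 192, 194 and 196 in phod2 P+ and 25, 26.6 and 21.9 in KC P-. GDPD2 had 134, 136 and 135 in phod2 P+ and 33.2, 31.1 and 32.0 in KC P-. UNE16, a homeodomain-like factor gene (254% of KC P-), NLA, a ubiquitin ligase gene for phosphate transporters (226%), and MGD1, the main galactolipid synthase gene (206%), were nearer to the 2-fold limit. Against KC P+ none of the 5 was called, with log2 differences of -0.01, 0.35, 0.00, -0.01 and 0.25 in this order, and 4 of the 5, all but MGD1, were called lower in KC P- than in KC P+.

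**Figure D3:**
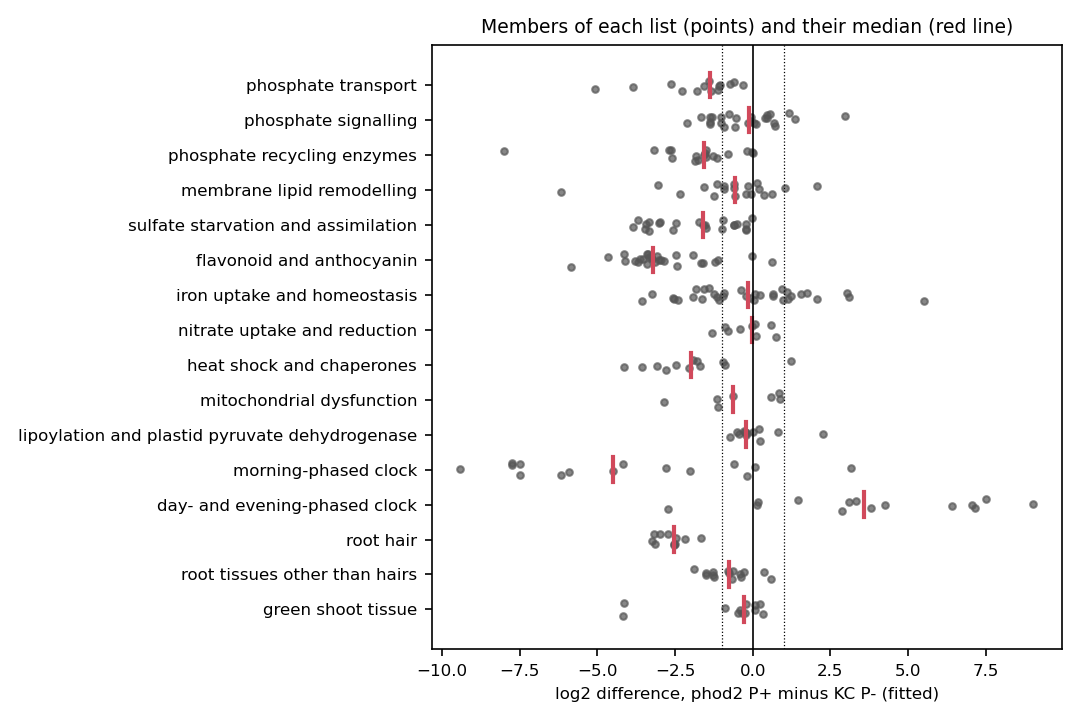
Fitted log2 difference of phod2 P+ from KC P- for each tested member of the 16 lists (points) and the list's median (red line), with dotted lines at 2-fold. Medians run from -4.50 in morning-phased clock genes to 3.57 in day- and evening-phased ones, with -3.20 in flavonoid genes and -0.58 in membrane lipid genes.

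Flavonoid genes, which plants raise under many stresses, stood far below KC P- in fed phod2. Of 28 flavonoid and anthocyanin genes, 26 stood below KC P- (14.3% of all genes) and 2 within 2-fold (60.6%), with a median log2 of -3.20. LDOX, DFR and UF3GT, late anthocyanin genes, differed by -4.11 ± 0.086, -3.33 ± 0.071 and -3.70 ± 0.098 and were not called against KC P+. The early genes CHS, CHIL, F3H and FLS1 were called lower in phod2 P+ than even in KC P+ (-1.43, -1.33, -2.49 and -1.31), as were 4CL3 and the regulator MYB12. The lowest against KC P- were F3H (-5.84), the regulator MYB75 (-4.65), SCPL10 (-4.14), an acyltransferase-type carboxypeptidase gene, and LDOX. Only GSTF12, a carrier of anthocyanins, and the regulator TT8 were called higher in phod2 P+ than in KC P+.

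For the lists that follow, the shares over all genes were 14.3% below KC P-, 9.98% above it and 60.6% within 2-fold. Against KC P+ 7.4% of all genes were called. Sulfate genes stood below KC P- in 14 of 23 members, with 7 within 2-fold (median log2 -1.60). LSU2 (-3.84), APR2 (-3.71), APR1 (-3.47) and LSU3 (-3.44), sulfur-deficiency and sulfate-reduction genes, differed most, and none of them was called against KC P+. Exceptions against KC P+ were SULTR1;3, a phloem sulfate transporter gene, and LSU1, both called higher, and GGCT2;1, a glutathione-degrading enzyme gene, called lower. Heat shock genes were below KC P- in 9 of 12 members (median -1.98), among them HSP70 (-3.09) and the plastid disaggregase gene CLPB3 (-2.79), and 0 were called against KC P+. Of 7 mitochondrial dysfunction genes tested 3 stood below KC P-, namely NDB2 (-2.87), AOX1A (-1.14) and OM66 (-1.13). Of 9 nitrate genes tested 7 lay within 2-fold and 1, the root nitrate exporter gene NRT1.5, stood below (-1.30), which is near the shares over all genes. In the lipoylation list, LIP1P (AT5G08415) was within 2-fold, at 20.8, 21.4 and 19.4 CPM in phod2 P+ and 25.2, 23.9 and 24.8 in KC P- (-0.26 ± 0.069, edgeR adjusted p = 0.00415). Of that list's 12 members 10 lay within 2-fold, LIP2 was undecided and LIP2P, a plastid octanoyltransferase gene, was above (2.27 ± 0.097) with a log2 difference of -0.02 from KC P+.

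Outside the clock, the iron list, which is also the longest list, had the most members above KC P- in phod2 P+. Of 34 tested, 9 stood above (9.98% of all genes), 13 below (14.3%) and 7 within 2-fold (60.6%), and 5 were undecided. More members thus stood below than above, and the median log2 difference was -0.16. Fewer members stood above in limma on log2(FPKM + 1). The regulator BHLH38 (AT3G56970) had 0.213, 0.491 and 0.567 CPM in KC P+, 3.44, 3.51 and 3.81 in phod2 P+ and 1.33, 1.16 and 2.16 in KC P-. BHLH39 (AT3G56980) had 4.37, 4.82 and 4.12 in phod2 P+ against 1.8 to 2.33 in KC P-, and BHLH100 (AT2G41240) 3.91, 3.61 and 3.54 against 0.0531, 0 and 0.180. These encode related transcription factors that switch on iron uptake, and in each of them all phod2 P+ libraries lay above all libraries of both KC groups. Their log2 differences from KC P- were 1.22 ± 0.23, 1.12 ± 0.17 and 5.51 ± 0.43 (edgeR adjusted p = 0.000304, 4.77e-05 and 4.75e-08). AT1G47395 and AT1G47400, short genes without a name in the annotation, were 8.52-fold and 8.21-fold above KC P-, and both were called above KC P+ as well. BHLH101 was also above KC P- (2.06 ± 0.38) but was not called against KC P+.

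Genes of iron uptake and transport stood at different levels relative to KC P-. IRT1 (AT4G19690), the root iron transporter gene, had 2.81, 3.11 and 3.31 CPM in KC P+, 19.1, 20.6 and 21.5 in phod2 P+ and 50.4, 49.0 and 45.9 in KC P-, so phod2 P+ held 42.1% of the KC P- level (37.5% to 47.3%). FRO2, the ferric reductase gene, stood at 52.7% (43.3% to 64.2%) and was undecided. CYP82C4, an iron-responsive cytochrome P450 gene, stood at 33.4%, and AT3G12900, annotated as a 2-oxoglutarate and iron-dependent oxygenase, was above KC P- at 1.77, 1.90 and 2.69 against 0.849, 0.554 and 0.479. Among nicotianamine synthase genes, which make an iron carrier, NAS4 lay within 2-fold of KC P- (93.9%, 82.0% to 107%) and NAS2 (-2.56), NAS3 (-2.41) and NAS1 (-1.83) below it. The storage and vacuolar genes VTL1 (-3.55), VTL2 (-3.23), VTL5 (-2.55) and FER1 (-1.93) were below KC P-, and of these VTL5 was called below KC P+.

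**Figure D4:**
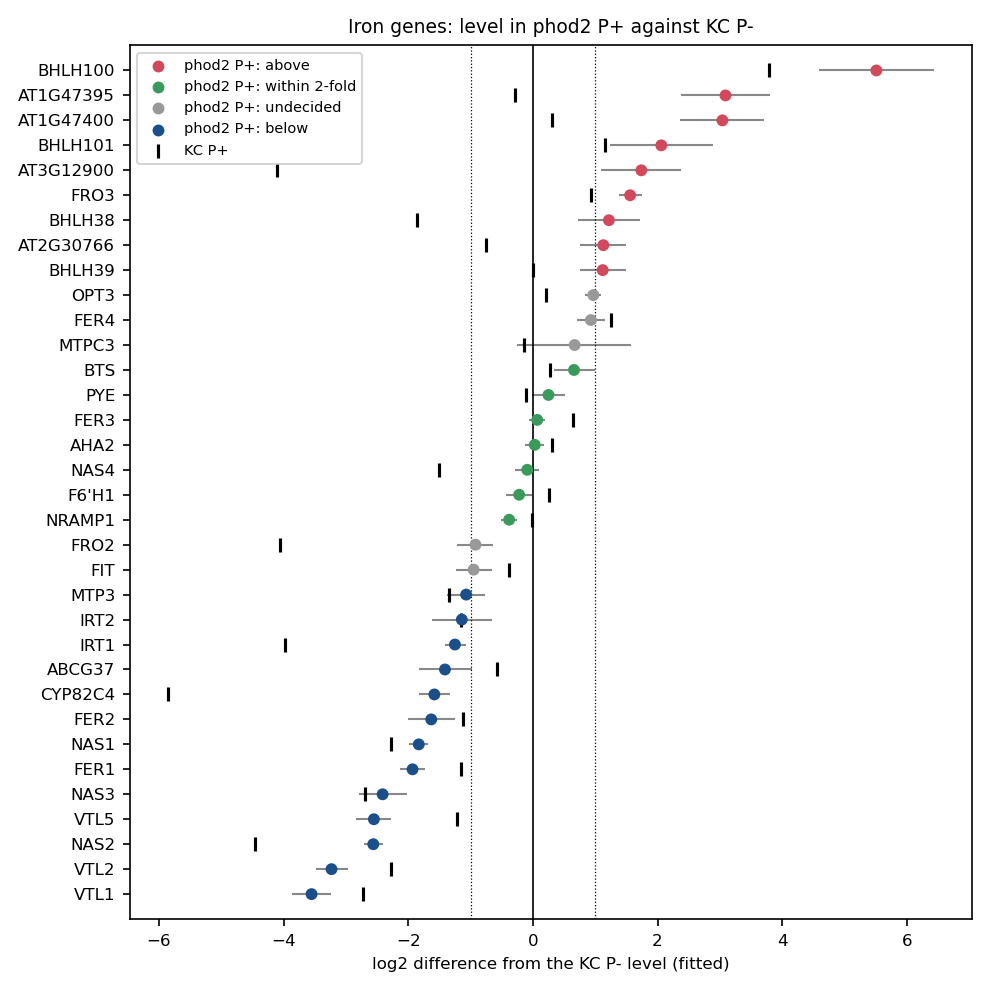
Fitted log2 difference of phod2 P+ from KC P- (points with 95% intervals) and of KC P+ from KC P- (ticks) for the 34 tested iron genes. BHLH100 is highest at 5.51 and VTL1 lowest at -3.55, and 9 members lie above with a call.

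Some clock genes, CCA1 among them but not TOC1, separated the groups more widely than any starvation gene with counts in both groups. CCA1 (AT2G46830), a core morning gene, had 0.638, 0.164 and 0.174 CPM in KC P+, 0.260, 0.0487 and 0.358 in phod2 P+ and 164, 159 and 155 in KC P- (-9.42 ± 0.24, edgeR adjusted p = 2.8e-13). TOC1 (AT5G61380), its evening counterpart, had 211, 199 and 204 in KC P+, 211, 214 and 223 in phod2 P+ and 24.1, 25.1 and 26.5 in KC P- (3.09 ± 0.081, edgeR adjusted p = 4.05e-13). So phod2 P+ stood with KC P+ and apart from KC P- in both genes. Of 15 morning-phased genes 11 were below KC P-, RVE2 was above (3.18) and 3 were within 2-fold. Of 14 day- and evening-phased genes 11 were above, GI was below (-2.73) and 2 were within 2-fold. Of these 29 clock genes only LNK1 (-1.47) and GI (-1.0) were called between phod2 P+ and KC P+, where 7.4% of all genes were called. The evening element AAAATATCT, searched on both strands, was in 6 of the 14 day- and evening-phased promoters (42.9%), in 0 of the 38 starvation genes raised in KC P- and in 2.65% of all promoters.

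**Figure D5:**
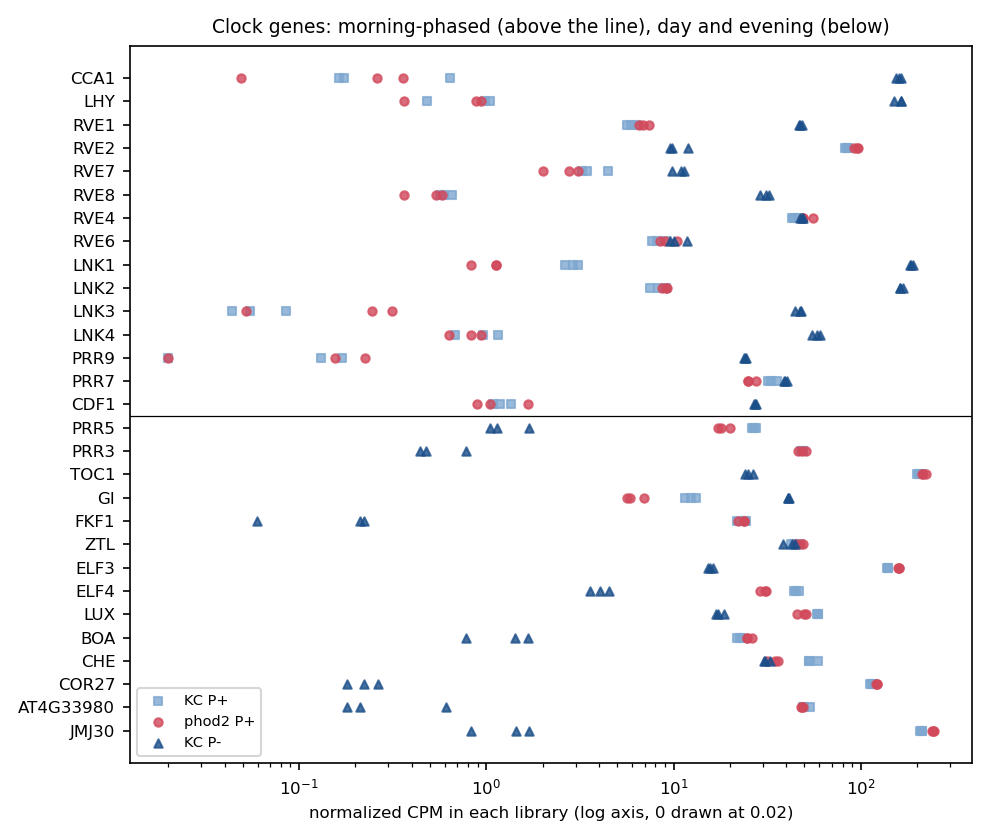
Normalized CPM (log axis) of 29 clock genes in the libraries of KC P+ (squares), phod2 P+ (circles) and KC P- (triangles). For CCA1 the KC P- libraries lie between 155 and 164 and the phod2 P+ libraries at or below 0.358, and for TOC1 the order is turned.

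A starvation gene that differs between phod2 P+ and KC P- therefore differs together with genotype, phosphate supply and clock state, and these cannot be told apart here. Between KC P- and KC P+, 11 of 15 morning-phased genes were higher in KC P- and 11 of 14 day- and evening-phased genes lower. Phosphate supply and clock state thus cannot be told apart in the genes raised in KC P- either. The difference between phod2 P+ and KC P+, given above beside the difference from KC P-, was measured between groups in which 27 of 29 clock genes were not called. This is near the share over all genes tested, of which 7.4% were called. Whether these 2 groups had the same clock state was not tested.

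Of the 16 genes with the largest differences named over the whole table, 3 were also called higher in phod2 P+ than in KC P+, namely LURP1, PCC1 and PCR1. LURP1 (AT2G14560), a gene of unknown function in the annotation, had 44.3, 44.8 and 44.7 CPM in phod2 P+, 0.106, 0.166 and 0 in KC P- and 8.72, 6.66 and 8.55 in KC P+. PCC1 (AT3G22231), a cysteine-rich membrane protein gene, had 39.4, 44.3 and 43.3 in phod2 P+, 0.0531, 0.166 and 0.120 in KC P- and 8.59, 8.89 and 7.37 in KC P+. Both exceeded both KC groups, by log2 differences of 2.47 and 2.36 from KC P+. PCR1 was at least 85.3-fold and CYP71B22 at least 104-fold higher in phod2 P+ than in KC P-, where neither had a count, and PCR1 was called above KC P+ too (1.13). DRMH1 (1096-fold), COR27 (527-fold), DJC76 (192-fold) and JMJ30 (182-fold) and, on the low side, CCA1, COL7, ELIP2, SWEET15, LNK3 and LHY (-9.42, -8.84, -8.22, -7.89, -7.76 and -7.74) were not called between phod2 P+ and KC P+. MIP1A had 0 counts in both fed groups and was at least 103-fold lower in phod2 P+ than in KC P-.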

How the data were processed

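Per the file headers, the deposited table of the authors pairs a raw count for each gene with its FPKM (scaled to exon length and depth) in 12 libraries, each made from 1.3 µg of total RNA. For aligner, counter and strand, these are not given in the sources used here. As build, the submitters' processing notes name mm10, a mouse build, whereas 99.95% of the 32548 genes matched to RefSeq TAIR10.1 had equal start and end there. Without strand, antisense or overlapping partners cannot be told apart.

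Counts were fitted in 1 model of 4 group means over 12 libraries (R 4.3.3, edgeR 4.0.16, TMM factors, filterByExpr with a smallest count of 10, glmQLFit, glmQLFTest, Benjamini-Hochberg over 20891 genes). Levels are TMM-scaled CPM, and ± on a log2 difference is its SE. Intervals are 95%, with the SE taken from the quasi-likelihood F. Replicates are separate biological samples per the series' design text. Floors are 3 counts over a group and cover counting error only. No pair of columns within a group was identical. Alternatives used limma 3.58.1 on log2 FPKM or TPM with a pseudocount of 1 or 0.1, and DESeq2 1.42.0. In simulated counts of 20657 genes, a small part of the genes was changed, in phod2 P+ only. There 93% of changes of 1.5 and 100% of changes of 3 on the log2 scale were called. In the data 24.2% of genes were called, so these shares need not hold for the comparison itself.

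The gene lists hold 280 members in 16 lists. Members, lists and tests were chosen with earlier results of these data known. Named by rule were called starvation-list members and those within 2-fold of KC P- that were called higher in KC P-, up to 4 called members per direction of each other list, the 8 highest and 8 lowest called genes with a symbol, no overlap and a mean of at least 1 CPM in the higher group, and 8 genes named always. Further list members that are named with values were chosen after their values were seen.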

Additional observations from a re-analysis of the deposited data

How the results depend on the processing

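Under 21 alternatives the 98 called named genes kept their direction wherever a value was given; PAP25 did not pass the filter with only the 6 libraries compared. Of these, 17 lost the call under at least 1 alternative, mostly in limma on log2(FPKM + 1) or log2(TPM + 1), a scale that understates the change of low genes; among starvation genes these were PHF1, PHT3;2, AT4, WRKY75, PAP25, PAP22, PAP24, BFN1, PPCK2 and PLDP2. On log2(FPKM + 1) limma called 3201 genes, 1755 of them lower in phod2 P+, and on log2(TPM + 1) 1926 were lower, against 5065 and 2980 in edgeR. Starvation genes above KC P- numbered 5 under every alternative, those below 27 to 39 and those within 2-fold 25 to 38. Leaving out 1 library gave 5070 to 5191 called genes, 2052 to 2157 higher and 2953 to 3139 lower, 5 starvation genes above, 35 to 39 below and 25 to 28 within 2-fold. The 5191 came without phod2 P- replicate 2, whose TMM factor was 0.9278, against 0.9987 and 1 in its group. Without it the SE of AT4 fell from 0.096 to 0.045 and that of WRKY75 rose from 0.2 to 0.24. The SE and intervals given thus depend in part on that library. On log2(FPKM + 1) the members below KC P- were 9 of the recycling enzymes instead of 14, 5 heat shock genes instead of 9 and 1 marker of other root tissues instead of 6 (3 on log2(TPM + 1)), and 4 iron genes instead of 9 were above. With the length trend removed, 1 mitochondrial gene instead of 0 was above, and 2175 genes were higher and 2884 lower.

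Same-numbered libraries of phod2 P+ and KC P- showed little shared deviation over all genes (r across genes 0.0359, -0.00319 and -0.0171). Not every library correlated best with its own number. Each gene had equal weight in r, so a pairing that affects few genes could go unseen. Under the replicate block 5065 genes were called, 2082 higher and 2983 lower, with 5, 37 and 28 starvation genes above, below and within 2-fold, and the call of PAP25 was lost (adjusted p = 0.0658). The group without counts limits what can be seen to 0.0483 CPM in phod2 P+ and 0.056 CPM in KC P-.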
